A study of Homo sapiens with 22 samples.

Results

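A set of 10 genes that differ between wild-type and alpha-synuclein-overexpressing LUHMES cells without any toxin was followed across every group of the experiment: DAB1, SLC8A1, SUSD4, SPTSSB, ASS1 and SHISA6, which were lower with alpha-synuclein, and ADGRB1, KLHL40, GPR142 and PTGDS, which were higher. These 10 of the 34679 genes in the table were chosen by name from the untreated genotype comparison of these same libraries, so their untreated differences are a description and carry no test. The questions were whether each difference was also present after 6-hydroxydopamine (6-OHDA) and how far it rested on single libraries. LUHMES cells are a human embryonic mesencephalic line that can be differentiated into post-mitotic neurons, and 6-OHDA is a dopamine analogue used to injure such neurons in models of Parkinson's disease. Polyadenylated RNA of 22 libraries was sequenced.

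All cells were differentiated before use. The 6 groups were wild-type cells untreated (4 libraries), cells overexpressing alpha-synuclein untreated (4), wild-type cells with 6-OHDA (4), alpha-synuclein cells with 6-OHDA (4), and alpha-synuclein cells given 6-OHDA together with quercetin (3) or rutin (3), plant flavonols of which rutin is quercetin carrying a disaccharide. Doses, exposure times, the promoter that drives alpha-synuclein and whether the overexpressing line is a single clone are not stated in the labels. Nothing in the labels says that replicates came from separate cultures, so p-values here reflect no more than the variation among these libraries, which may be technical.

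The genes belong to different pathways. DAB1 is the intracellular adaptor of the reelin signal that positions migrating neurons, SLC8A1 (NCX1) exchanges sodium for calcium across the plasma membrane, SHISA6 is an auxiliary subunit of AMPA-type glutamate receptors, and ADGRB1 (BAI1) is an adhesion receptor of synapses and of cells that engulf apoptotic debris. SUSD4 is a membrane protein with sushi domains, the module of complement regulators. SPTSSB is a small subunit of serine palmitoyltransferase, the entry enzyme of sphingolipid synthesis, ASS1 joins citrulline and aspartate on the way to arginine, and PTGDS makes prostaglandin D from prostaglandin H and carries lipophilic molecules. KLHL40 stabilises thin-filament proteins of skeletal muscle, and GPR142 is a receptor for aromatic amino acids known from pancreatic islets.

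Library totals ran from 1866396 to 20667106 counts, so the 3 counts taken here as the floor of detection were worth 0.168 to 1.49 CPM (counts scaled to the TMM-adjusted library size; group levels are mean ± SD). Sequencing lane 1 held the untreated groups and treated wild-type cells (12 libraries) and lane 2 all other treated cells (10), so genotype and lane cannot be told apart with 6-OHDA. Replicates 3 and 4 of the untreated alpha-synuclein cells each carry 4 barcode numbers in their library names. Treated alpha-synuclein replicate 4 stood apart: on the first principal component, with 40.8% of the variance, it was at -1.47 where the other treated libraries were at 35.8 to 45.3 and the untreated ones at -76.4 to -53.5. Neuron markers were present throughout (11 of 12 measured), summing to 9721 to 10597 CPM in untreated wild-type and 8378 to 10340 in untreated alpha-synuclein cells.

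Promoters are shown for the 3 genes on which the results below turn: SUSD4, whose level differed most with 6-OHDA among the 10; ASS1, which responded in the opposite direction to the others that were lower with alpha-synuclein; and GPR142, whose genotype difference passed the test with 6-OHDA. Each is a window of 300 bases around a RefSeq transcription start (GRCh38.p14), read 5′ to 3′ on the gene's strand, with motif matches in capitals. The SUSD4 window is chr1:223364127-223364426 (minus strand), the ASS1 window, the downstream of 2 listed for this gene, chr9:130444711-130445010 (plus), and the GPR142 window chr17:74367256-74367555 (plus).
SUSD4: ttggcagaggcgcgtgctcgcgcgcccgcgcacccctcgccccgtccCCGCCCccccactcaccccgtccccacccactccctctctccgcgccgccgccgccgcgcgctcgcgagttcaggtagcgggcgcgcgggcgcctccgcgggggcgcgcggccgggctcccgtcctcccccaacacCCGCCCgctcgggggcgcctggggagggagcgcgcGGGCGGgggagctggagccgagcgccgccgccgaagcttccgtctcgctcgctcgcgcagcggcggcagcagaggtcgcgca
ASS1: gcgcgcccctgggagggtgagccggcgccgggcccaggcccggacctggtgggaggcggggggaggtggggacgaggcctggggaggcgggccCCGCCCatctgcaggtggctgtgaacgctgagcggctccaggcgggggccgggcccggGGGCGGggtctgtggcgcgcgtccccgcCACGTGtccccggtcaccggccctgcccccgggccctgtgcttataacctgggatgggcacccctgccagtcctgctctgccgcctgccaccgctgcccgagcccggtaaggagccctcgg
GPR142: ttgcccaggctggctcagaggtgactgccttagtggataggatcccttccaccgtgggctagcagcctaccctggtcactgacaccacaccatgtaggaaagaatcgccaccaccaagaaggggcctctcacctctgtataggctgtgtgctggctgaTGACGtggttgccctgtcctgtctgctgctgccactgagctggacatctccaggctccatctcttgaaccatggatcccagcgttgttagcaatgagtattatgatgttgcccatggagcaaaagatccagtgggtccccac
Capitals mark GC boxes (GGGCGG) in SUSD4 and ASS1, an E-box (CACGTG) in ASS1 and the core of a cyclic-AMP response element (TGACG) in GPR142, each searched on both strands. Of 35116 promoter windows of the same length, 45.0% held the GC box, 7.26% the E-box and 24.6% the TGACG core, so these letters are common. The SUSD4 window is 81.7% G and C, the ASS1 window 78.3% and the GPR142 window 55.7%. The motifs are a description of the sequence; no binding was measured.

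In untreated cells, all 10 genes separated the genotypes with no overlap between libraries; over all 16601 genes tested, 2.26% had every alpha-synuclein library below every wild-type one and 3.08% had every one above. At an adjusted p under 0.05, 0.651% of tested genes were called in this comparison, the 10 among them by choice. Differences below are alpha-synuclein minus wild type on the log2 scale, ± SE, and levels are CPM in replicates 1 to 4.

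The neuronal signalling genes came first. DAB1 was at 5.39, 8.57, 6.73 and 6.59 CPM in wild-type and 2.14, 3.03, 2.35 and 1.43 in alpha-synuclein libraries, a difference of -1.60 ± 0.34. SLC8A1 was at 9.47, 9.12, 6.54 and 8.11 CPM in wild-type and 3.43, 3.58, 2.85 and 2.57 in alpha-synuclein libraries (-1.43 ± 0.20). For both genes the lowest wild-type library was well above the highest alpha-synuclein library. SHISA6 was at 55.4, 32.7, 25.8 and 22.4 CPM against 14.4, 15.8, 10.002 and 11.6 (-1.40 ± 0.22). Wild-type replicate 1 carried the highest SHISA6 level, and the other wild-type libraries were nearer to the alpha-synuclein ones. ADGRB1 was at 51.6, 86.3, 68.8 and 67.9 CPM in wild-type and 153, 102.7, 121 and 152 in alpha-synuclein libraries (0.95 ± 0.14). It is the only one of these neuronal genes that was higher with alpha-synuclein. SUSD4 was at 18.5, 30.6, 12.3 and 16.001 CPM against 9.57, 6.34, 8.55 and 4.57 (-1.43 ± 0.27). Its wild-type replicate 2 was far above the other wild-type libraries.

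The enzyme genes split by direction. SPTSSB was at 6.86, 6.38, 5.79 and 8.65 CPM in wild-type and 2.29, 3.17, 2.24 and 2.51 in alpha-synuclein libraries (-1.44 ± 0.30). ASS1 was at 21.9, 42.0, 28.03 and 27.1 CPM against 12.1, 13.4, 13.6 and 13.2 (-1.17 ± 0.22). The alpha-synuclein libraries were nearly equal for ASS1, with an SD of 0.648 CPM, while the wild-type SD was 8.58. PTGDS was at 51.6, 47.8, 45.4 and 49.3 CPM in wild-type and 96.4, 70.1, 66.5 and 118 in alpha-synuclein libraries (0.85 ± 0.18). Here the spread lay on the alpha-synuclein side, where replicates 1 and 4 were high and replicates 2 and 3 were closer to wild type.

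Both remaining genes are known mainly from other tissues. KLHL40 was at 3.76, 4.56, 2.24 and 3.68 CPM in wild-type and 7.57, 7.44, 8.60 and 9.54 in alpha-synuclein libraries (1.22 ± 0.23). GPR142 was at 17.3, 21.2, 16.6 and 15.2 CPM against 34.7, 34.8, 40.5 and 49.2 (1.19 ± 0.19). Of 5 tested skeletal muscle markers, 0 were called between the untreated genotypes by edgeR or DESeq2 and 1 had an unadjusted p under 0.05. The summed level of the muscle list, most of it TTN, was 97.4 to 205.9 CPM in untreated wild-type and 112.6 to 189.4 in untreated alpha-synuclein cells. Simple epithelium markers were low in both genotypes, summing to 23.9 to 31.0 CPM in wild-type and 27.7 to 36.5 in alpha-synuclein cells. Glial markers summed to 86.7 to 99.9 against 83.9 to 110.1 CPM and proliferation markers to 150.4 to 199.4 against 139.6 to 232.1 CPM. No gene of these other 3 lists was called by either tool, and 1 epithelial, 0 glial and 1 proliferation marker had an unadjusted p under 0.05. Neuron markers, whose summed ranges overlapped, had a median difference of -0.19. Of 11 tested, edgeR called 0 and DESeq2 1 (NEFL, a neurofilament). An unadjusted p under 0.05 was found for 7 of the 11, against 1534 of all 16601 tested genes. The part of neuronal markers in the differences of the 10 genes was not tested. In bulk RNA, fewer cells of a type and less RNA per cell cannot be told apart.

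**Figure D1:**
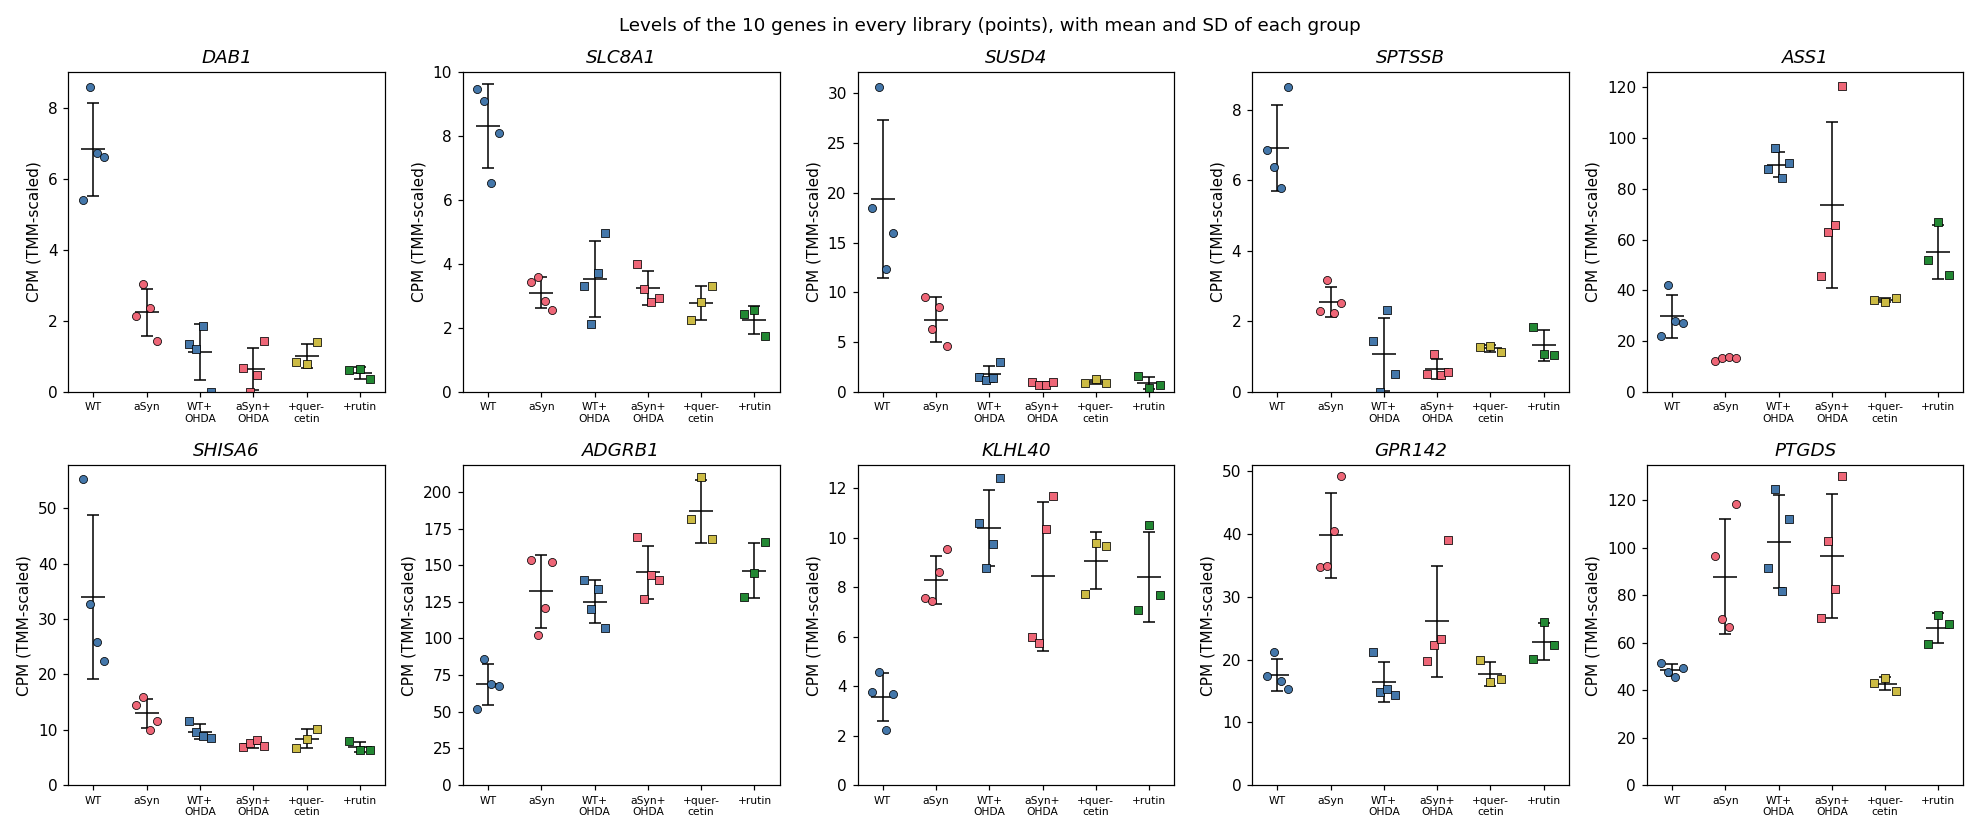
CPM (linear axes from 0) of the 10 genes in every library; points are libraries, horizontal lines group means and bars SD, with WT for wild type and aSyn for alpha-synuclein, and +quercetin and +rutin for alpha-synuclein cells with 6-OHDA and the compound. DAB1, SUSD4, SPTSSB and SHISA6 were highest in untreated wild-type cells and low in all treated groups, whereas ASS1 was highest with 6-OHDA.

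How far the untreated differences rested on single libraries was examined by leaving out each of the 8 libraries in turn. The direction held in all 8 for each of the 10 genes, as it had to, since their libraries did not overlap between genotypes. These libraries chose the genes, so the calls kept or lost below are a description of dependence, not a test. SLC8A1 (-1.52 to -1.34), SHISA6 (-1.56 to -1.06), ADGRB1 (0.83 to 1.07) and GPR142 (1.07 to 1.29) stayed past the threshold whichever library was left out. SUSD4 (-1.59 to -1.12) and ASS1 (-1.29 to -0.97) stayed past it in 7 of 8, and both dropped out only without alpha-synuclein replicate 4. KLHL40 (1.07 to 1.34) stayed in 6 of 8. The weakest were SPTSSB (-1.56 to -1.31; 3 of 8), DAB1 (-1.79 to -1.42; 2 of 8) and PTGDS (0.67 to 0.97; 2 of 8), for which most single removals ended the call although the value moved little. Without alpha-synuclein replicate 4 the whole comparison had 33 called genes in place of 108, and without its replicate 2 it had 239. That replicate 4 was the lowest alpha-synuclein library for 3 of the 6 lower genes and the highest for 3 of the 4 higher genes; PTGDS was 0.67 without it. Leaving out both alpha-synuclein libraries with several barcode numbers leaves 2 in that group. Every direction was kept, again because the genotypes do not overlap (DAB1 -1.36, SLC8A1 -1.24 and KLHL40 1.07, for example). However, 0 of the 10 genes and 11 genes in all were then called. With only the untreated groups in the fit, 5 of the 10 and 23 genes in all were called.

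**Figure D2:**
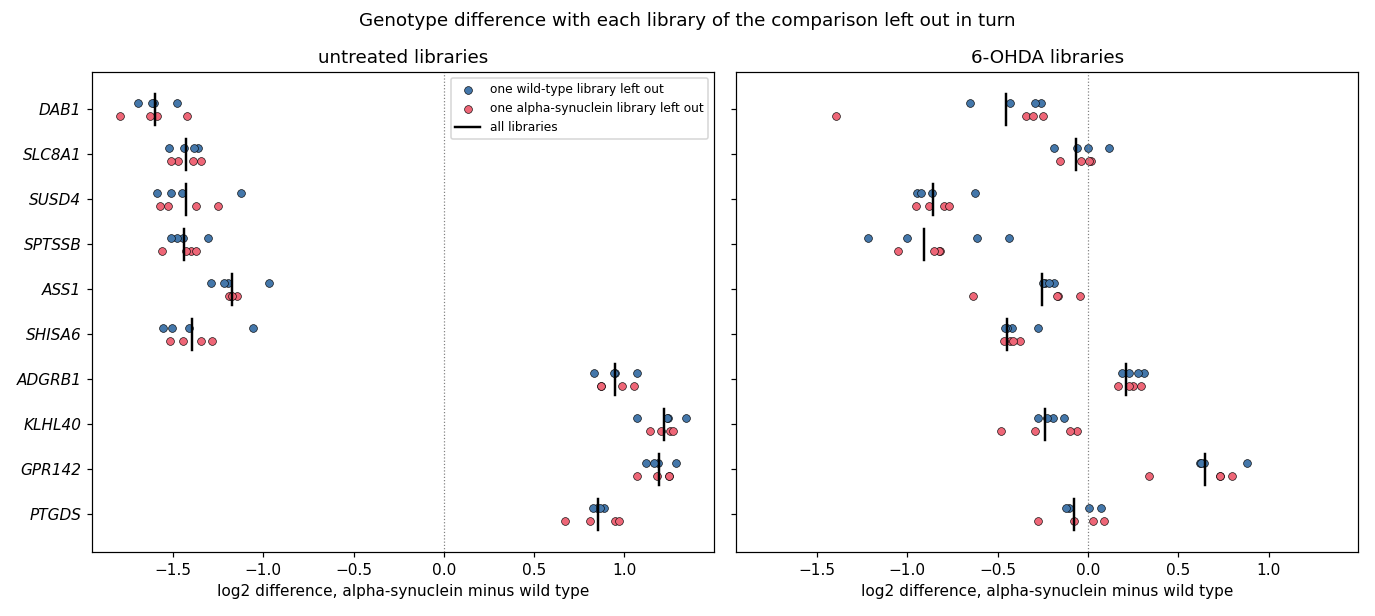
Log2 difference, alpha-synuclein minus wild type, with each library of the comparison left out in turn, for untreated cells (left) and cells with 6-OHDA (right); points are refits without 1 wild-type or 1 alpha-synuclein library and vertical bars the values with all libraries. Untreated points stay on 1 side of 0 for all 10 genes, as they must where genotypes do not overlap. SLC8A1 and PTGDS points with 6-OHDA fall on both sides.

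With 6-OHDA, GPR142 alone of the 7 members that can be tested passed the threshold between genotypes. Of all tested genes, 27.3% were called in this comparison (14.4% higher, 12.9% lower). These 8 libraries took no part in choosing the genes, so the comparison is tested, using the spread of all 22 libraries, untreated ones included. The count filter bears on it: 7 of the 10 genes pass on these 8 libraries alone, whereas DAB1, SUSD4 and SPTSSB do not and entered the test through other groups, being highest in untreated cells. For these 3 genes the treated values, here and with the compounds, are a description without a test. SLC8A1, ASS1 and SHISA6, the lower genes that pass, had values below 0, and 0 of 3 reached an unadjusted p under 0.05. Of the 4 higher genes, ADGRB1 and GPR142 had values above 0 and KLHL40 and PTGDS below 0, and 1 of 4 reached that unadjusted p. Over all tested genes 6286 of 16601 reached it. Intervals in this comparison are 95%.

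GPR142, the amino acid receptor, was at 21.2, 14.8, 15.3 and 14.4 CPM in treated wild-type and 19.8, 22.3, 23.3 and 39.1 in treated alpha-synuclein libraries, higher by 0.65 ± 0.20 (interval 0.23 to 1.06, adjusted p = 0.0196). The groups overlapped, since wild-type replicate 1 exceeded alpha-synuclein replicate 1, and alpha-synuclein replicate 4 was far above the rest. Without that library the difference was 0.34 (adjusted p = 0.173), and leaving out any of the other 7 kept the call. The call was also lost with only the 2 groups compared in the fit (0.65, adjusted p = 0.0509) and without the libraries under 3000000 counts (0.62, adjusted p = 0.0958).

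Among the neuronal signalling genes, SHISA6 was at 11.5, 9.68, 8.84 and 8.45 CPM in treated wild-type and 6.81, 7.54, 8.22 and 6.98 in treated alpha-synuclein libraries (-0.45 ± 0.26, interval -0.99 to 0.10, adjusted p = 0.223). SUSD4 was at 1.51, 1.21, 1.40 and 2.98 CPM against 0.997, 0.718, 0.705 and 0.965 (-0.86 ± 0.48, interval -1.86 to 0.14). In these genes alone of the 10, every treated alpha-synuclein library lay below every treated wild-type library, an arrangement found in 11.3% of tested genes (12.8% had all above). SUSD4 rested on few reads there, 3 to 20 counts in wild-type and 2 to 17 in alpha-synuclein libraries, and its interval included the untreated value of -1.43. SLC8A1 was at 3.31, 2.12, 3.72 and 4.97 CPM against 3.99, 3.23, 2.82 and 2.95 (-0.07 ± 0.25, interval -0.58 to 0.44, adjusted p = 0.888). Its treated libraries of both genotypes overlapped the range of untreated alpha-synuclein cells. DAB1 was at 1.36, 1.21, 1.86 and 0 CPM against 0.665, 0, 0.470 and 1.42 (-0.46 ± 0.52, interval -1.53 to 0.62), from 0 to 18 counts in wild-type and 0 to 25 in alpha-synuclein libraries. The DAB1 value ran from -1.40 to -0.25 when single libraries were left out. ADGRB1 was at 139.6, 120.4, 133 and 107 CPM against 169, 127, 144 and 140.0 (0.21 ± 0.15, interval -0.10 to 0.51, adjusted p = 0.322). All its treated libraries exceeded every untreated wild-type library.

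Of the enzyme genes, ASS1 was at 87.7, 95.9, 84.2 and 90.0 CPM in treated wild-type and 45.5, 62.8, 65.6 and 121 in treated alpha-synuclein libraries (-0.25 ± 0.21, interval -0.69 to 0.18, adjusted p = 0.411). Alpha-synuclein replicate 4 was above every wild-type library and the other alpha-synuclein libraries below them all. Without that replicate the ASS1 difference was -0.64 and passed the test (adjusted p = 0.00716). SPTSSB was at 1.43, 0, 2.33 and 0.497 CPM against 0.498, 1.08, 0.470 and 0.568 (-0.91 ± 0.50, interval -1.94 to 0.12). It was listed at 0 in wild-type replicate 2, and without that library the difference was -1.22. PTGDS was at 91.4, 125, 81.8 and 112 CPM against 70.5, 103.01, 82.7 and 130.4 (-0.07 ± 0.18, interval -0.45 to 0.30, adjusted p = 0.822), and KLHL40 at 10.6, 8.77, 9.77 and 12.4 against 5.98, 5.74, 10.3 and 11.7 (-0.24 ± 0.23, interval -0.71 to 0.23, adjusted p = 0.486). Both upper bounds lie under the untreated values of 0.85 and 1.22.

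Set beside each other, all 10 differences were smaller with 6-OHDA than without. The untreated value lay outside the treated interval for 8 genes, SUSD4 and SPTSSB being the exceptions. That count leaves out the SE of the untreated value, and it includes DAB1, whose treated value is a description from few reads. The treated minus the untreated difference was 1.36 ± 0.32 for SLC8A1, 1.15 ± 0.62 for DAB1, 0.95 ± 0.34 for SHISA6, 0.92 ± 0.31 for ASS1, 0.57 ± 0.57 for SUSD4 and 0.53 ± 0.60 for SPTSSB. For the higher genes it was -1.46 ± 0.32 for KLHL40, -0.93 ± 0.26 for PTGDS, -0.74 ± 0.21 for ADGRB1 and -0.54 ± 0.27 for GPR142. With both SEs counted, its interval held values of either sign for DAB1 (-0.14 to 2.44) and GPR142 (-1.11 to 0.02). The same was true of SUSD4 (-0.60 to 1.75) and SPTSSB (-0.72 to 1.78). For SLC8A1, SHISA6, ASS1, KLHL40, PTGDS and ADGRB1 the whole interval had the sign of the value. Over all tested genes, 5615 of 16601 had an unadjusted p under 0.05 for this difference. With single libraries left out, SLC8A1, KLHL40, PTGDS and ADGRB1 stayed past the threshold in 16 of 16 refits, ASS1 in 11 and SHISA6 in 5. Without treated alpha-synuclein replicate 4 the value was 0.53 for ASS1, 0.21 for DAB1, -1.70 for KLHL40, -1.13 for PTGDS and -0.85 for GPR142. These values are a description, because the genes were chosen for large untreated differences, a choice that itself favours smaller values in other libraries. That choice, the toxin and the lane cannot be told apart here.

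**Figure D3:**
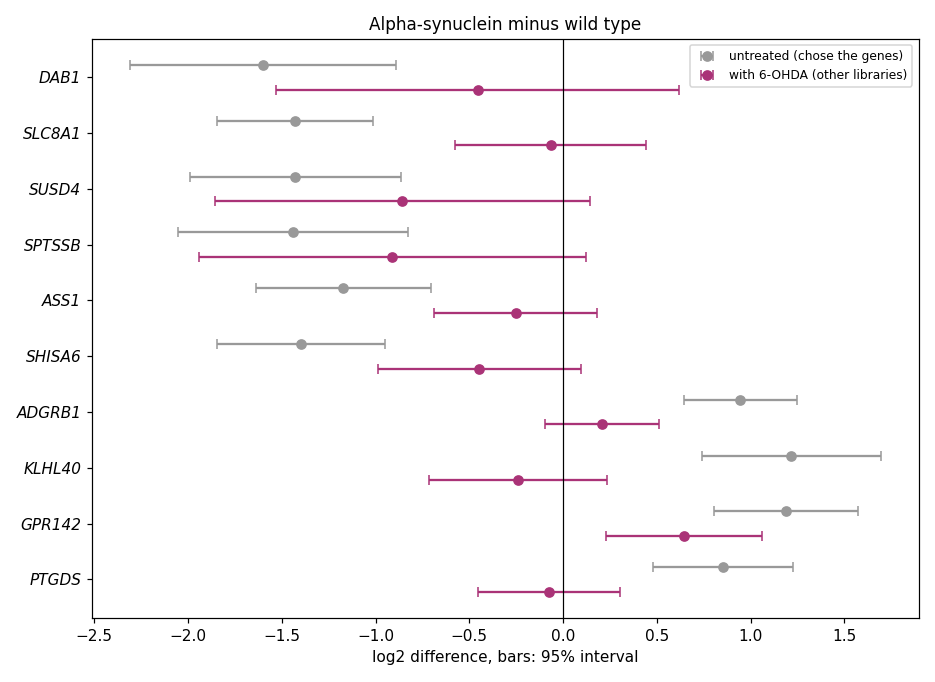
Log2 difference, alpha-synuclein minus wild type, in untreated cells (grey, the comparison that chose the genes) and in cells with 6-OHDA (purple, other libraries); points are fitted values and bars 95% intervals. GPR142 at 0.65 is the only treated value whose interval leaves out 0.

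The response to 6-OHDA itself, averaged over both genotypes, is independent of the untreated genotype difference. Of the 7 genes that pass the count filter on treated libraries alone, 6 passed the threshold, against 61.2% of all tested genes (31.2% higher, 30.0% lower), so a large share of called genes is the background here. Among the genes lower with alpha-synuclein, SHISA6 fell by 1.29 (SE 0.17, adjusted p = 9e-07) and SLC8A1 by 0.61 (SE 0.16, adjusted p = 0.00204). ASS1, the arginine-pathway enzyme, instead rose by 2.05 ± 0.16 (adjusted p = 2.19e-10). Of the 4 genes higher with alpha-synuclein, 3 rose: KLHL40 by 0.80 ± 0.16, PTGDS by 0.61 ± 0.13 and ADGRB1 by 0.51 ± 0.10, with adjusted p-values of 0.000204, 0.000282 and 0.000206. GPR142 was at -0.30 ± 0.14 (adjusted p = 0.0600) and did not pass. SUSD4, SPTSSB and DAB1, which passed the filter through groups where they are high, were at -3.26 ± 0.26, -2.34 ± 0.28 and -1.91 ± 0.30, given as a description. Leaving out any of the 16 libraries kept the 6 calls, and GPR142 was called in 4 of those 16 refits, with -0.45 (adjusted p = 0.00161) without treated alpha-synuclein replicate 4.

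Within each genotype, values are given without a test, since each is correlated with the untreated difference that chose the genes. In wild-type cells, all on lane 1, 6-OHDA minus untreated was -3.55 ± 0.37 for SUSD4, -2.61 ± 0.38 for SPTSSB, -2.48 ± 0.43 for DAB1, -1.77 ± 0.24 for SHISA6, -1.29 ± 0.23 for SLC8A1 and 1.59 ± 0.22 for ASS1. KLHL40, PTGDS, ADGRB1 and GPR142 stood at 1.53 ± 0.25, 1.08 ± 0.19, 0.88 ± 0.15 and -0.03 ± 0.20 there. In alpha-synuclein cells, across lanes, the lower genes were at -2.98 ± 0.37 (SUSD4), -2.08 ± 0.40 (SPTSSB), -1.34 ± 0.42 (DAB1), -0.82 ± 0.24 (SHISA6), 0.07 ± 0.22 (SLC8A1) and 2.51 ± 0.22 (ASS1). The higher genes were at 0.07 ± 0.21 for KLHL40, 0.15 ± 0.18 for PTGDS, 0.14 ± 0.14 for ADGRB1 and -0.57 ± 0.18 for GPR142. For SLC8A1, KLHL40, ADGRB1 and PTGDS the alpha-synuclein value was near 0, and untreated alpha-synuclein levels overlapped those of treated wild-type cells. Neuron markers moved with 6-OHDA as well: 8 of 11 fell and 2 rose, and their summed level was 4101 to 4407 CPM in treated wild-type and 4232 to 6279 in treated alpha-synuclein cells. Their part in the responses of the 10 genes was not tested.

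**Figure D4:**
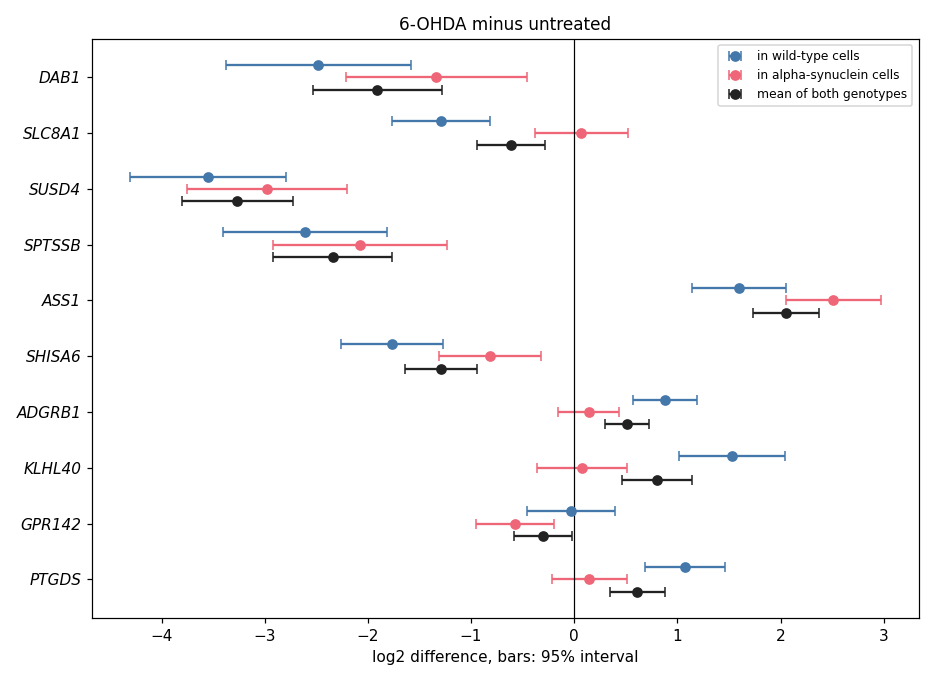
Log2 difference, 6-OHDA minus untreated, in wild-type cells, in alpha-synuclein cells and as the mean of both genotypes; points are fitted values and bars 95% intervals. SUSD4 has the lowest mean at -3.26 and ASS1 the highest at 2.05.

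Ordered by group mean, SUSD4 went from 19.4 ± 7.94 CPM in untreated wild-type through 7.26 ± 2.24 in untreated alpha-synuclein to 1.77 ± 0.816 in treated wild-type cells, and each of these steps was free of overlap. Its treated alpha-synuclein groups lay between 0.846 and 0.999 CPM and overlapped one another. SPTSSB stepped down without overlap from 6.92 ± 1.23 to 2.55 ± 0.429 CPM, and its treated group means, 0.653 to 1.32 CPM, were lower again, although treated wild-type replicate 3 reached into the untreated alpha-synuclein range. For SLC8A1 only untreated wild-type cells stood apart, at 8.31 ± 1.31 CPM, while the other 5 group means ran from 2.26 to 3.53 CPM and neighbours overlapped. KLHL40 was the mirror image, with untreated wild-type cells at 3.56 ± 0.964 CPM and the other group means from 8.29 to 10.4 CPM. DAB1 and SHISA6 were highest in untreated wild-type cells at 6.82 ± 1.31 and 34.04 ± 14.8 CPM, and every lower neighbouring pair of groups overlapped. ASS1 was lowest in untreated alpha-synuclein cells at 13.1 ± 0.648 CPM, next in untreated wild-type cells at 29.8 ± 8.58, and highest in treated wild-type cells at 89.4 ± 4.92. ADGRB1 was lowest in untreated wild-type cells at 68.6 ± 14.2 CPM, free of overlap, and highest with quercetin at 187 ± 21.7. GPR142 was highest in untreated alpha-synuclein cells at 39.8 ± 6.81 CPM, where replicate 4 of the treated alpha-synuclein cells overlapped it, and PTGDS was highest in treated wild-type cells at 102.6 ± 19.6 and lowest with quercetin at 42.7 ± 2.67.

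Quercetin added to 6-OHDA was followed by lower ASS1 and PTGDS in alpha-synuclein cells. These are 2 of the 7 members that pass the count filter on these libraries alone, against 2.53% of all tested genes called. PTGDS was at 43.0, 45.2 and 39.9 CPM with quercetin and fell by 1.19 (SE 0.20, adjusted p = 0.00874) from the treated alpha-synuclein libraries given above. ASS1 was at 35.998, 35.3 and 37.04 CPM and fell by 1.06 (SE 0.23, adjusted p = 0.0212). Both genes' quercetin libraries all lay below those with 6-OHDA alone, as 8.13% of tested genes did (5.36% lay all above). PTGDS kept the call without any 1 of the 7 libraries (-1.32 to -0.99). ASS1 lost it without each quercetin replicate (adjusted p from 0.0575 to 0.0786) and without treated alpha-synuclein replicate 4 (-0.67, adjusted p = 0.0782). With only the groups compared in the fit neither gene was called, at -1.15 (adjusted p = 0.139) for PTGDS and -1.02 (adjusted p = 0.188) for ASS1.

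None of the other members that pass the count filter on these libraries was called with quercetin. SPTSSB, which does not pass that filter and is described only, was at 1.27, 1.31 and 1.12 CPM (1.03 ± 0.46). It lay above every library with 6-OHDA alone, where it had 2 to 10 counts, as did 5.36% of tested genes. GPR142 was at 19.97, 16.4 and 16.9 CPM (-0.60 ± 0.20, adjusted p = 0.115), and of the 7 single removals it passed only without treated alpha-synuclein replicate 1 (-0.72, adjusted p = 0.0356). ADGRB1 was at 182, 210.3 and 168 CPM (0.36 ± 0.15, adjusted p = 0.221). DAB1, SLC8A1, SUSD4, SHISA6 and KLHL40 had differences from -0.19 to 0.23.

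With rutin 0 of the 7 members that pass the count filter on these libraries and 0 of all tested genes (0%) passed in edgeR. PTGDS alone of the 7 had an unadjusted p under 0.05, against 1790 of all 16601 tested genes. DESeq2 called 0 members and 285 genes. PTGDS was at 59.3, 71.7 and 67.9 CPM (-0.55 ± 0.20, adjusted p = 0.296) and SPTSSB at 1.83, 1.07 and 1.05 CPM (1.17 ± 0.49). ASS1 was at 51.9, 66.9 and 46.2 CPM (-0.43 ± 0.23, adjusted p = 0.515). The remaining members were at -0.58 (DAB1) to 0.06 (SUSD4). Among them SLC8A1, at 2.44, 2.57 and 1.75 CPM, lay below every library with 6-OHDA alone (-0.46 ± 0.26, adjusted p = 0.588). So did 4.60% of tested genes, and 4.10% lay all above. Quercetin and rutin were compared with the same 4 control libraries, so their values are not independent.

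The compounds were therefore compared directly, as the single pair available and with unknown doses. None of the 8 members that pass the count filter on these libraries alone passed in edgeR, where 0.00602% of tested genes did. An unadjusted p under 0.05 was found for 3 members and 1481 genes. DESeq2 called 0 members but 77 genes higher and 39 lower with quercetin. Quercetin minus rutin was -0.63 ± 0.21 for PTGDS (interval -1.07 to -0.20, adjusted p = 0.340), -0.62 ± 0.24 for ASS1 (interval -1.13 to -0.12, adjusted p = 0.428) and 0.36 ± 0.16 for ADGRB1 (interval 0.02 to 0.70, adjusted p = 0.531). Every quercetin library lay below every rutin library for PTGDS, ASS1 and GPR142, and above for ADGRB1 and DAB1; of all tested genes 12.7% lay all below and 9.04% all above. The intervals of the other 7 genes included 0 and were widest for DAB1 (-0.39 to 2.01) and SUSD4 (-0.92 to 1.18). These intervals leave differences of either sign possible, so the compounds are not shown to act alike on those genes.

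Other genes of the same pathways were read from 10 lists, which hold 133 tested genes besides the members. In untreated cells 2 of 133 (1.504%) were called, against 0.651% of all tested genes. ATP2A1, a calcium pump of the sarcoplasmic reticulum grouped here with SLC8A1, was higher with alpha-synuclein (0.69 ± 0.13, adjusted p = 0.00984), and so was ADGRA1, an adhesion receptor related to ADGRB1 (0.70 ± 0.14, adjusted p = 0.0160). The reelin, sushi-domain, sphingolipid, arginine, AMPA receptor, BTB-kelch, GPR142-related and prostaglandin lists held no other gene called by edgeR in untreated cells. DESeq2 called 1 gene of these lists, SEZ6 (sushi domains). Among them, unadjusted p-values under 0.05 were most frequent in the arginine (3 of 15) and prostaglandin (3 of 11) lists. Over all tested genes 1534 of 16601 had such a p. With 6-OHDA, 39 of 133 (29.3%) differed between genotypes, 21 higher and 18 lower with alpha-synuclein, a share near the 27.3% of all tested genes. How far these calls rest on treated alpha-synuclein replicate 4, which stood apart, was not examined.

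Within the neuronal lists, the reelin pathway had 2 of 18 tested genes higher and 3 lower with 6-OHDA, among them SOCS7, a suppressor of cytokine signalling (-1.11 ± 0.12, adjusted p = 7.82e-06). Of 14 sodium-calcium exchangers and calcium pumps 2 were higher and 2 lower, with the plasma membrane calcium pump ATP2B1 higher (0.72 ± 0.12, adjusted p = 0.000187). Of 15 AMPA receptor genes 1 was higher and 1 lower; the higher one was the receptor subunit GRIA2 (1.01 ± 0.15, adjusted p = 8.51e-05). These genes differed with 6-OHDA while SLC8A1 and SHISA6 themselves did not pass. The adhesion receptor list also holds ELMO1, ELMO2, DOCK1 and TIAM1, which are not receptors. Of its 17 tested genes 5 were higher and 2 lower, ADGRL2, a latrophilin, being higher (0.68 ± 0.10, adjusted p = 9.97e-05). Of 15 sushi-domain and complement regulators 3 were higher and 2 lower, CD46 being higher (0.68 ± 0.13, adjusted p = 0.000582).

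Sphingolipid synthesis had 5 of 16 tested genes higher and 2 lower, and the ceramide synthase CERS6 was among the higher (0.70 ± 0.12, adjusted p = 0.000281). SPTLC2 (0.43 ± 0.09, adjusted p = 0.00172) and SPTLC3 (0.79 ± 0.15, adjusted p = 0.000553), catalytic subunits of the enzyme SPTSSB belongs to, were also higher. Of 15 urea cycle and arginine genes 4 were lower and 0 higher, including ASL, which acts directly after ASS1 (-0.42 ± 0.10, adjusted p = 0.00444). Of 11 prostaglandin genes 2 were lower, both of them prostaglandin E synthases: PTGES2 (-0.73 ± 0.13, adjusted p = 0.000355) and PTGES3 (-0.81 ± 0.16, adjusted p = 0.000829). In the BTB-kelch list 3 of 8 were higher, among them CUL3, the scaffold of the ubiquitin ligases these proteins serve (0.69 ± 0.10, adjusted p = 9.66e-05). Of the 4 tested GPR142 relatives and fatty acid receptors, 0 were called by edgeR or DESeq2 and 0 had an unadjusted p under 0.05.

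The genes most like each member were found from Pearson's r of log2 CPM over the 22 libraries, which share the groups and the lanes, so r is a description only. SUSD4 was most like NSG1 (0.972) and PRICKLE2 (0.967), SHISA6 most like SYNPR (0.937) and SFMBT2 (0.915), and DAB1 most like CAMK2D (0.913) and FAM110B (0.899). For SLC8A1 they were CTXN3 (0.855) and SHISA6 (0.847), a fellow member, and for SPTSSB C21orf62 (0.891) and LMO2 (0.885). ASS1 was most like MTHFD1L (0.914) and MYDGF (0.912), and ADGRB1 most like ADGRA1 (0.861) and SHOX2 (0.859). KLHL40 followed FGFRL1 (0.887) and CCNJL (0.852), GPR142 followed SPARC (0.886) and ATP2A1 (0.886), and PTGDS followed LCNL1 (0.904) and HID1 (0.827). Both listed relatives called in untreated cells appear here, ADGRA1 beside ADGRB1 but ATP2A1 beside GPR142 and not SLC8A1, with which it was listed. They were called in the same untreated libraries that enter r, so their likeness to members is partly built in.

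In the genome (GRCh38, GENCODE 29) the 6 lower genes are DAB1 at chr1:56994778-58546734, SLC8A1 at chr2:40097270-40611053, SUSD4 at chr1:223220819-223364202 and SPTSSB at chr3:161344792-161372880, all on the minus strand, and ASS1 at chr9:130444929-130501274 and SHISA6 at chr17:11241263-11564063 on the plus strand. The higher genes are all on the plus strand, ADGRB1 at chr8:142449430-142545009, KLHL40 at chr3:42685519-42692544, GPR142 at chr17:74367407-74372622 and PTGDS at chr9:136975092-136981742. They differ in size: the lower genes span 28.1 to 1552 kb, with a median of 233 kb, and the higher ones 5.22 to 95.6 kb, with a median of 6.84 kb. Over all tested genes the median span was 29.3 kb; it was 149 kb for the 46 genes called lower in untreated alpha-synuclein cells and 21.5 kb for the 62 called higher. As the members are among these called genes, the spans are a description. DAB1, SLC8A1 and SHISA6 overlap antisense genes, none of which was among the tested genes. Whether the strand was used in counting is not stated, so part of their counts could belong to those genes. On the same strand, DAB1 overlaps OMA1 and other genes, SHISA6 overlaps AC005725.1 and PTGDS overlaps AL807752.7, which strand could not separate.

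The 20 nearest tested neighbours on either side of the members included 0 genes called in the untreated comparison by edgeR or DESeq2. An unadjusted p under 0.05 was found there for 4, against 1534 of all 16601 tested genes. With 6-OHDA 3 of the 20 were called, against 27.3% of all tested genes. LCNL1, a lipocalin-like gene that starts 0.162 kb after PTGDS, was at 63.3 CPM in untreated wild-type and 96.9 in untreated alpha-synuclein cells (0.61 ± 0.19, adjusted p = 0.212). It had the level pattern most like PTGDS, and at this distance reads beyond the end of one gene could be counted in the other. HHATL, 0.119 kb from KLHL40, was at 0.48 (adjusted p = 0.323) in the same comparison.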

How the data were processed

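The deposited table holds estimated counts per gene for 22 libraries, which the authors made with Trimmomatic 0.38 and kallisto 0.46.2 on GRCh38, per the submitters' processing notes; neither the annotation release nor the use of strand is given in the sources used here. The estimated counts were rounded and tested with edgeR 4.0.16 in R 4.3.3 (quasi-likelihood test, group means of all 22 libraries, TMM scaling). Genes passing filterByExpr at a minimum count of 10 were tested (16601 of 34679; all 10 members), with Benjamini-Hochberg adjustment over all of them, and a gene was called at an adjusted p under 0.05. CPM are counts scaled to the TMM-adjusted library total; log2 CPM used a prior count of 2. Log2 differences are those of the edgeR fit. Library totals were 1866396 to 20667106 counts; the floor of 3 counts covers counting error only. Replicates of a group all differed by more than sampling noise, chi-square divided by its degrees of freedom running from 2.87 to 26.2.

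The members and the gene lists were chosen with earlier results of these data known. The named genes were the 10 members, up to 4 called genes per related list with the smallest adjusted p, the 2 genes most correlated with each member, and the nearest tested neighbours; NEFL and TTN were named after their values were seen. The fit was tested on data simulated for the treated genotype comparison. It recovered 72 of 100 changes of 1 log2 unit and 96 of 100 of 2, and called 8 unchanged genes. The changed genes were drawn from well-covered ones and no simulated library was made to stand apart. A difference of 1 log2 unit or less can therefore be missed. Alternatives were DESeq2 1.42.0, its size-factor scaling in edgeR, no count filter, a replicate block, only the groups compared, leaving out each library, the libraries with several barcode numbers or those under 3000000 counts. Positions come from GENCODE 29, whose IDs matched 34658 of 34679 genes without version numbers, and promoters from a RefSeq table that held 9 of the 10 members.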

Additional observations from a re-analysis of the deposited data

Results flagged for a closer look

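In the 40 groups of 4 libraries examined for the 10 genes, 3 held a library far from the other replicates; chance alone gives about 5% of groups such a library. SUSD4 in wild-type cells with 6-OHDA was at 2.98 CPM in replicate 4 and at 1.21 to 1.51 CPM in the other libraries, where 2.98 CPM stands for 6 counts. SPTSSB in alpha-synuclein cells with 6-OHDA was at 1.08 CPM in replicate 2, which stands for 3 counts. GPR142 in wild-type cells with 6-OHDA was at 21.2 CPM in replicate 1 against 14.4 to 15.3 CPM in the other libraries, and without it the treated genotype difference of GPR142 was 0.88.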

How the results depend on the processing

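Counts of called genes moved by more than 1.5 times under some settings. In untreated cells 108 genes were called; DESeq2 called 230, the fit with only the groups compared 23, and the fit without the libraries with several barcode numbers 11. With quercetin, 420 became 969 with DESeq2, 120 with the replicate block, 2 with only the groups compared, 230 without the several-barcode libraries and 273 without those under 3000000 counts. Rutin, with 0, gave 2 with DESeq2's size factors in edgeR, 285 with DESeq2 and 4 without the count filter. Quercetin against rutin, with 0 genes higher and 1 lower, gave 77 and 39 with DESeq2, 4 and 4 without the filter, 12 and 7 with only the groups compared, and 0 and 0 without the libraries under 3000000 counts. Members called with 6-OHDA between genotypes went from 1 to 0 with only the groups compared and without the libraries under 3000000 counts, and with quercetin from 2 to 0 with only the groups compared.

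Leaving out single libraries gave 33 to 239 untreated genes, 26 to 896 quercetin genes and 0 to 143 rutin genes. Between the compounds it gave 0 to 30 genes higher and 0 to 28 lower. Members called ran from 1 to 2 for the 6-OHDA genotype difference and from 1 to 3 for quercetin. The second with 6-OHDA was SPTSSB, without treated wild-type replicate 2. SPTSSB passes the filter only through other groups, so its call is a description without a test.

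Signs turned for the following values, none of which was called. Between genotypes with 6-OHDA, SLC8A1 was 0.19 without the libraries under 3000000 counts, and leaving out single libraries gave -0.19 to 0.11 for SLC8A1 and -0.27 to 0.0898 for PTGDS. With quercetin, KLHL40 was -0.0411 without the shallow libraries; single removals gave -0.10 to 1.16 for DAB1, -0.0021 to 0.29 for SUSD4 and -0.0796 to 0.31 for KLHL40. With rutin, ADGRB1 was -0.0099 with DESeq2's size factors, -0.0059 with DESeq2, -0.0089 without the filter and -0.15 without the shallow libraries, and with the replicate block SUSD4 was -0.12 and KLHL40 0.0947. Single removals with rutin gave -0.75 to 0.36 for DAB1, -0.82 to 0.55 for SUSD4, -0.21 to 0.0043 for SHISA6, -0.10 to 0.0834 for ADGRB1, -0.24 to 0.21 for KLHL40 and -0.34 to 0.0822 for GPR142. Between the compounds they gave -0.35 to 1.02 for SUSD4, -0.35 to 0.21 for SPTSSB and -0.031 to 0.31 for KLHL40. The cause was not tested.

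Libraries with the same replicate number did not deviate together: over 51 pairs r ran from -0.138 to 0.0776 and 0 exceeded 0.1. With the replicate block 97 untreated genes were called (9 of the 10 members, DAB1 dropping out at -1.62), and 4208 genes between genotypes with 6-OHDA (1 member). For the mean 6-OHDA response 9969 genes were called. The 9 members among them include SUSD4, SPTSSB and DAB1, whose values there are a description. DAB1, SUSD4 and SPTSSB had treated levels near the floor of 3 counts in the shallow libraries; with only the groups compared they failed the count filter and gave no value between genotypes with 6-OHDA, with quercetin or with rutin, nor did DAB1 and SUSD4 between the compounds.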

Other observations

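The mean response to 6-OHDA was also read in the relatives of the 10 genes. Of 17 tested genes of the adhesion receptor list 13 fell and 2 rose, and of 15 AMPA receptor genes 9 fell and 2 rose. GRIA2, the AMPA receptor subunit that limits calcium entry, went from 332 to 48.2 CPM in wild-type and from 324 to 97.3 CPM in alpha-synuclein cells. Of 14 sodium-calcium exchangers and calcium pumps 8 fell and 2 rose, and of 18 reelin pathway genes 8 fell and 1 rose. Sphingolipid synthesis had 7 of 16 lower and 4 higher, the arginine list 5 of 15 lower and 4 higher, the sushi-domain list 5 of 15 in each direction, and the BTB-kelch list 4 of 8 lower. By contrast 5 of 11 prostaglandin genes and all 4 tested genes of the list of GPR142 relatives and fatty acid receptors rose, and 0 of either fell. The levels of that receptor list were low, summing to 4.54 to 7.51 CPM in untreated and 10.3 to 12.1 CPM in treated wild-type cells. GPR139, a gene of the same list, was at 0 CPM in untreated cells of both genotypes. Over all tested genes 31.2% rose and 30.0% fell.

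Markers of other cell types in the same comparison were counted as well. Of 10 proliferation markers 5 fell and 0 rose, of 7 glial markers 3 rose and 2 fell, of 5 skeletal muscle markers 2 rose, and of 7 simple epithelium markers 5 rose and 1 fell, the last at summed levels of 25.9 to 39.02 CPM in treated wild-type and 31.1 to 35.5 CPM in treated alpha-synuclein cells.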
